A study of Xenopus laevis with 4 samples.

Results

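Chromosomes 2L and 2S of Xenopus laevis form the pair of homeologous chromosomes of which 2L carries the sex-determining region. All mRNA 5-methylcytosine (m5C) sites that the deposited lists place on 2L or 2S were taken by their chromosome name alone, without regard to level or coverage. At stage 25 these were 5 of 45 listed sites, 2 on 2L and 3 on 2S. At stage 0 they were 1906 of 16233 listed sites in 887 of 7140 genes, of which 1037 sites in 483 genes were on 2L and 869 sites in 404 genes were on 2S. The sites came from RNA bisulfite sequencing (BS-seq) of polyadenylated RNA from pools of about 200 embryos, taken at stage 25 and at stage 0, with no other treatment named. The 4 libraries, 2 per stage, had been combined into 1 list per stage, so no value below has a replicate error, and intervals are 95% Wilson intervals that cover counting error only. The titles of the stage 25 libraries begin with XT and those of stage 0 with XL, while the organism label of all 4 is X. laevis, and the sex of the pooled embryos is not given.

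After bisulfite treatment plain cytosines appear as T in the reads and m5C remains C, and the level of a site is the percentage of C among its C and T reads. In animals m5C is placed on mRNA mainly by the methyltransferase NSUN2, which favours G-rich sequence after the cytosine, and by NSUN6, which favours the motif CTCCA in a loop. X. laevis is an allotetraploid: its genome joins those of a pair of ancestral species, and many genes persist as an L copy and an S copy on homeologous chromosomes, marked by the suffix of the gene name. The gene dm-w, a truncated relative of the testis factor dmrt1, lies on the W form of 2L and directs ovary development.

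Letters beside the m5C were at hand for 104 sites on 2L and 64 sites on 2S, as the 4 bases after the cytosine, with T written for U. These are sites that the study had set beside X. tropicalis, held here only in part, so their shares describe that subset. Some sites with letters in genes named below, among them CTCCA sites of mettl16.L and cog3.S, are not printed. The sequences of 19 others follow, with the methylated C in capitals, because they show the CTCCA form beside the G-rich and other forms.
kmt2d.L, position 137075450 of 2L: Ctcca
kmt2d.L, position 137075462 of 2L: Ctcca
kmt2d.L, position 137080365 of 2L: Cgagg
kmt2d.L, position 137138224 of 2L: Cagag
kmt2d.L, position 137145280 of 2L: Cgaat
tmem35b.L, position 79697332 of 2L: Caggg
wsb1.L, position 102930267 of 2L: Caggg
cdk2.L, position 138896470 of 2L: Cggga
lrp1.L, position 140845517 of 2L: Ctggg
lrp1.L, position 140877466 of 2L: Cagat
lrp1.L, position 140921602 of 2L: Ccgtt
lima1.L, position 151476865 of 2L: Cgcag
hmgn2.S, position 63012099 of 2S: Ctcca
srpk1.S, position 55180978 of 2S: Caagg
LOC108708921, position 63252050 of 2S: Caggg
ranbp2.S, position 91566297 of 2S: Cgctg
kmt2d.S, position 118889490 of 2S: Caggt
espl1.S, position 129757053 of 2S: Caggt
lima1.S, position 131606144 of 2S: Cagac

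The motif CTCNA, read on the strand of the site and beginning at the m5C, was held by 19 of the 104 sites on 2L (18.3%, interval 12.0 to 26.8%) and 13 of the 64 on 2S (20.3%, interval 12.3 to 31.7%), each of them as CTCCA. Of all 1223 sites with letters, 20.4% held it. That share belongs to the subset and not to the whole list. For maternal sites of the non-human species, X. laevis among them, the study reports a smaller share of this motif. The subset thus holds it more often than the maternal sites of the species as a whole. After Ctcca, the most frequent sequence on 2L was Caggg with 10 sites, and on 2S it was Cagga with 5 sites, followed by Caggg with 4. G stood at the position 2 bases after the m5C in 55.8% of the 2L sites and 54.7% of the 2S sites, and in 50.1% of the 1055 sites on other assembled chromosomes. The median level of the CTCCA sites was 22.7% on 2L and 23.6% on 2S, against 30.4% for the other 85 sites with letters on 2L and 22.9% for the other 51 on 2S. The CTCCA site with the highest lower bound was in rcan1.L, a calcineurin inhibitor, at position 13192266 of 2L, with a level of 79.9% at 836 reads (interval 77.1 to 82.5%). The CTCCA site of hmgn2.S, a nucleosome-binding protein named hmg-17 in the list, had a level of 31.8% at 31129 reads (interval 31.3 to 32.3%).

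The first comparison asked whether the m5C sites are shared evenly between both chromosomes of the pair. On 2L there were 1.19 times as many sites and 1.20 times as many genes with a site as on 2S. Both ratios were the lowest of the 9 chromosome pairs, where the L over S ratio of the other 8 pairs was between 1.26 and 1.77 for sites and between 1.27 and 1.56 for genes. The listed span, from the start of the chromosome to the last listed site, was 1.14 times as long on 2L as on 2S, against 1.13 to 1.41 times in the other pairs. Per Mb of that span 2L held 5.73 sites and 2S held 5.45 sites, which gives a ratio of 1.05 that is not the lowest of the 9 pairs (1.03 to 1.45 in the others). Ratios of the other pairs differ among themselves as much as pair 2 differs from its nearest neighbour, pair 9/10, and no test over replicates was possible. Numbers of annotated genes per chromosome were not examined, so the ratios are not set against the gene content of each pair.

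**Figure D1:**
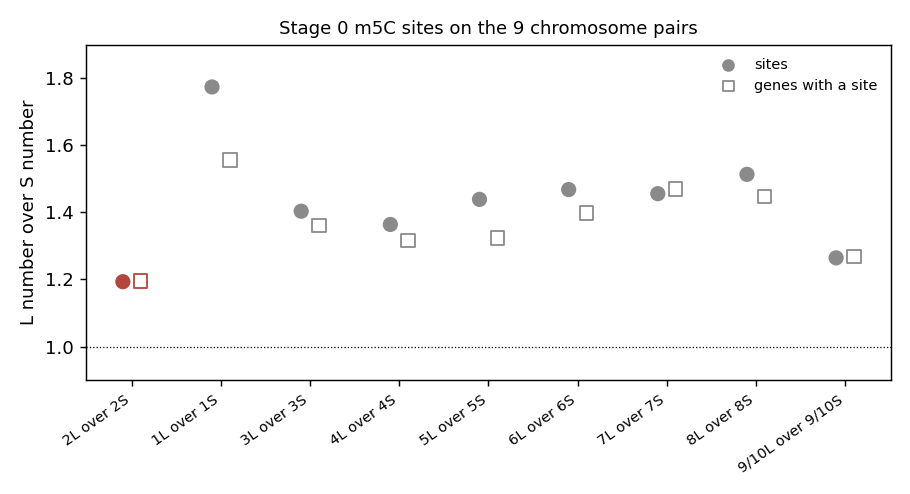
Number of stage 0 sites (filled circles) and of genes with a site (open squares) on the L chromosome over that on its S partner, for the 9 chromosome pairs, with 2L over 2S in red at the left. The ratio is 1.19 for sites and 1.20 for genes in pair 2, below the 1.26 and 1.27 of pair 9/10, which comes next.

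Within genes the sites were spread in a like manner. A gene with a site held 2.15 sites on average on both 2L and 2S, within the range of 2.01 to 2.43 on the other 16 assembled chromosomes. A single site was listed in 235 of 483 genes on 2L (48.7%) and in 201 of 404 genes on 2S (49.8%), and 5 or more sites in 38 genes on 2L and 35 on 2S. The other chromosomes had a single site in 40.6 to 51.4% of genes and 5 or more sites in 16 to 59 genes. Sites on the plus strand made up 49.0% on 2L (interval 46.0 to 52.0%) and 43.8% on 2S (interval 40.6 to 47.2%), against 46.3 to 61.9% on the other chromosomes. The 2S value was the lowest of the 18 chromosomes, and genes on the plus strand likewise made up 43.8% of the 2S genes with a site. Sites of 1 gene share their strand, so the interval of the site share is too narrow.

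The listed site numbers depend on how many reads covered each cytosine. Median coverage was 151 reads on 2L (range 22 to 21311) and 157 reads on 2S (range 20 to 36796), against medians of 122 to 166.5 reads on the other assembled chromosomes. A cytosine with no entry may be unmethylated, below the level minimum of 10% or thinly covered, and transcript abundance and site density cannot be told apart in these lists.

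The level of sites differed little between both chromosomes. The mean level was 29.2% on 2L (SD 20.9 over 1037 sites) and 29.8% on 2S (SD 21.1 over 869 sites), a difference of -0.62 percentage points. In the other chromosome pairs L minus S was between -1.33 and 1.21 points. The SD gives the spread among sites and not the error of this difference, which was not tested. The other chromosomes had means of 28.5 to 31.0%. Median levels were 20.9% on 2L and 21.7% on 2S. Levels under 20% were listed at 47.3% of sites on 2L (interval 44.2 to 50.3%) and 46.0% on 2S (interval 42.7 to 49.4%). Levels of at least 50% were listed at 160 sites on 2L (15.4%, interval 13.4 to 17.8%) and 141 on 2S (16.2%, interval 13.9 to 18.8%). Levels of at least 90% were listed at 19 sites on 2L (1.83%) and 14 on 2S (1.61%). All these shares lay within those of the other assembled chromosomes. There they were 44.1 to 50.3% under 20%, 14.9 to 19.6% of at least 50% and 1.06 to 2.76% of at least 90%. The intervals of 2L and 2S overlap for levels under 20% and of at least 50%. They treat sites of the same gene as independent, as do those of the CTCNA shares, and their overlap is no test. Coverage and level were nearly unrelated across sites, with a Spearman correlation of -0.005 on 2L (n = 1037) and -0.08 on 2S (n = 869), where sites of a gene share its depth.

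The genes with the most sites on 2L were arhgef17.L with 18, kmt2d.L with 17, apbb1.L and lrp1.L with 10 each and cdk2.L with 8. On 2S they were kmt2d.S with 17, igsf3.S with 11, espl1.S with 10 and LOC108708921 and lrp1.S with 9 each. ranbp2.S also held 9 sites and was left out here by its lower total coverage. The list names kmt2d.L and kmt2d.S as LOC108708548 and LOC108708990, and their symbols come from RefSeq by gene number.

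In arhgef17.L, which encodes a guanine nucleotide exchange factor, levels ran between 12.7% and 93.9% with a median of 17.2%. Its sites span 130577 nt from 179925673 to 180056250 on the minus strand of 2L. The first 10 in the direction of transcription lie within 3516 nt, and the last 7 stand 125153 nt or more after the first. The highest, at position 179929602, had 357 C reads of 380 (93.9%), and its nearest neighbour upstream, 118 nt away, had 39 of 279 (14.0%). Of the 18 sites, 2 reached 50%.

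kmt2d encodes a histone lysine methyltransferase that marks enhancers, and each copy had 17 sites. In kmt2d.L the levels were between 11.1% and 95.7% (median 22.2%) at 46 to 277 reads, and in kmt2d.S between 10.4% and 70.9% (median 16.7%) at 47 to 415 reads. Each copy had 4 sites of at least 50%. In kmt2d.L these were at positions 137164216 (95.7% of 46 reads), 137164400 (65.3% of 49 reads), 137145280 (51.4% of 107 reads) and 137067113 (65.7% of 134 reads). In kmt2d.S they were at positions 118954189 (70.9% of 206 reads), 118911928 (55.3% of 47 reads), 118898891 (53.8% of 320 reads) and 118927794 (50% of 64 reads). The highest site of kmt2d.L follows its upstream neighbour by 184 nt, and the highest site of kmt2d.S follows its own by 185 nt. These spacings were noticed after the values were seen, and without a genome of this build it was not tested whether the cytosines correspond. The paired CTCCA sites of kmt2d.L printed above lie 12 nt apart, with levels of 34.96% at 123 reads and 14.3% at 84 reads.

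**Figure D2:**
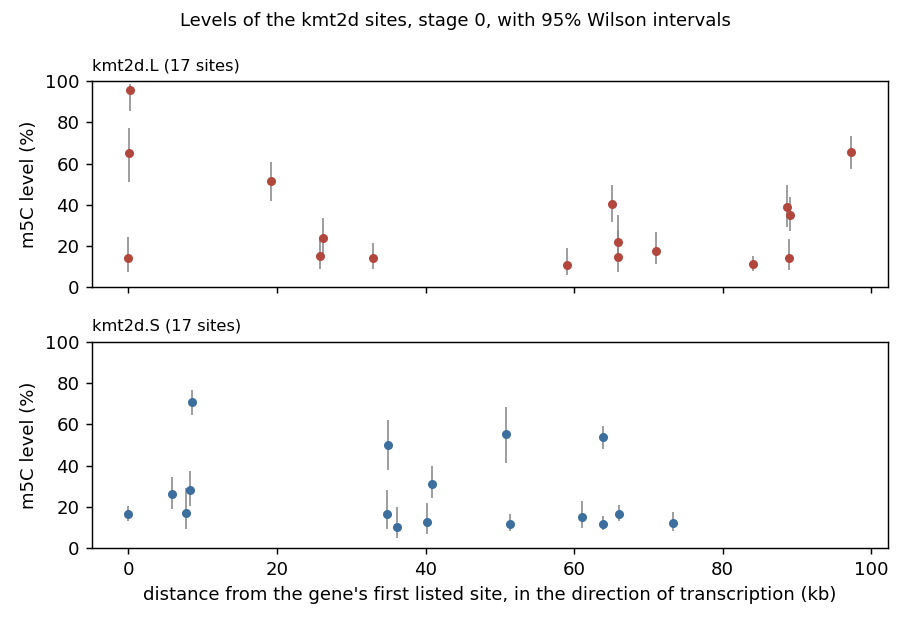
Level of each stage 0 site of kmt2d.L (top) and kmt2d.S (bottom), with bars for the 95% Wilson interval, against its distance from the first listed site of the gene in kb. Each copy has 17 sites, most of them under 40%, and 4 sites at 50% or more that stand at different distances in each copy.

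The other genes with many sites differed in their highest levels. In apbb1.L, an adaptor that binds the amyloid precursor protein, all 10 sites stayed between 14.2% and 45.5%, and 3 of them, at 45.5%, 44.2% and 34.6%, lie within 28 nt. In igsf3.S, an immunoglobulin-domain membrane protein, the site at position 29139615 had a level of 86.7% at 963 reads, while the other 10 were between 10.4% and 37.9%. In espl1.S, the separase that cleaves cohesin at anaphase, sites at 129772269 (92.7% of 1213 reads) and 129756793 (71.0% of 303 reads) stood above the remaining 8, which were between 17.9% and 45.4%. In cdk2.L, a kinase of the S phase, 2 of 8 sites exceeded 50%, at 93.2% of 705 reads and 64.8% of 825 reads. In LOC108708921, which has no annotated name, levels were between 12.4% and 56.4%.

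Highly methylated sites with tight intervals were found on both chromosomes. On 2L the 5 highest lower bounds belonged to mettl16.L, klf15.2.L, morc3.2.L, wsb1.L and suox.L. mettl16.L, itself an RNA methyltransferase that makes N6-methyladenosine, had 3980 C reads of 4191 at position 47037294 (94.97%, interval 94.3 to 95.6%), while its 3 other sites were at 10.1%, 20.2% and 12.2%. klf15.2.L, a Krüppel-like transcription factor, had a level of 96.4% at 165 reads at position 63881131 (interval 92.3 to 98.3%), and morc3.2.L, a chromatin ATPase, had 93.8% at 1138 reads at position 12209200 (interval 92.2 to 95.02%). wsb1.L, a substrate receptor of a ubiquitin ligase, had 93.6% at 846 reads (interval 91.8 to 95.1%). suox.L, sulfite oxidase, was read as C in 41 of 41 reads at position 138807163, for which the interval reaches down to 91.4%.

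On 2S the 5 sites were in lima1.S, srpk1.S, espl1.S, phactr4.S and MGC78963. lima1.S, an actin-binding LIM protein, had a level of 95.4% at 835 reads at position 131613174 (interval 93.8 to 96.7%). srpk1.S, a kinase of splicing factors, had 95.2% at 228 reads (interval 91.6 to 97.3%). phactr4.S, a regulator of actin and a protein phosphatase, had 91.4% at 1168 reads at position 63924171 (interval 89.6 to 92.8%), and MGC78963, which is without an annotated function here, had 92.7% at 218 reads at position 80773869 (interval 88.4 to 95.4%). Of these 10 sites, 6 lie on the minus strand and 4 on the plus strand. None is in a gene matched to the 20 that flank dm-w in the RefSeq order.

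The sites with the most reads were not the highest. On 2L they were in LOC108708645 (11.0% of 21311 reads), ucp2.L (71.9% of 16595 reads), tuba3c.L (23.5% of 13728 reads), nucks1.L (43.8% of 11757 reads) and krt8.L (19.2% of 11703 reads). On 2S they were in LOC108709196 (49.8% of 36796 reads), hmgn2.S (31.8% of 31129 reads), MGC80893 (10.8% of 17793 reads), rpain.S (12.5% of 15469 reads) and marcksl1.S (28.3% of 13895 reads). ucp2 is a mitochondrial carrier, nucks1 a nuclear DNA-binding phosphoprotein, krt8 a keratin of simple epithelia, rpain an importer of replication protein A and marcksl1 an actin-binding substrate of protein kinase C. tuba3c belongs to the alpha-tubulins, a family of near-identical genes among which reads may be divided, so its value is uncertain. Reads may likewise be divided between the L and S copies of a gene where these are similar. This was not examined, and it limits every comparison of copies in this report.

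The second comparison set the copies of a gene on 2L and 2S side by side. By the names of the list, 564 genes had an L copy with a site on 2L or an S copy with a site on 2S. Both copies were listed for 144 of them (25.5%), the L copy alone for 250 (44.3%) and the S copy alone for 170 (30.1%). In the other 8 pairs both copies were listed for 19.2 to 24.7% of genes, L alone for 45.8 to 54.3% and S alone for 23.8 to 31.0%. Pair 2 thus had the highest share with both copies and the lowest share with L alone, by small margins that were not tested. An S symbol exists in RefSeq for 116 of the 250 genes listed in L alone, and an L symbol for 92 of the 170 listed in S alone. For the remaining genes the unlisted copy may be lost, unnamed or placed elsewhere. Naming also enters these counts, since 76 genes with a site on 2L and 70 on 2S have LOC names. In addition, 8 genes on 2L carry the suffix .S and 13 on 2S the suffix .L. Some genes counted in 1 copy alone thus have the other copy listed under another name, as espl1.L and cog3.L are listed by LOC numbers.

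Where both copies were listed, L had more sites in 51 genes, S in 45, and 48 had equal numbers. This order was not stable, since it was 24 genes for L against 28 for S at sites of at least 100 reads, and 20 against 20 at levels of at least 20%. The median site level was higher in L in 72 genes and higher in S in 72. Over all 144 the copies averaged 2.23 sites in L and 2.22 in S. Both were the lowest of the 9 pairs (2.44 to 2.76 and 2.23 to 2.83 in the others), which was not tested. Over the 136 genes with both copies on 2L and 2S themselves, the averages were 2.26 in L and 2.23 in S. Across the 136 genes the Spearman correlation between the copies was 0.32 for the number of sites, 0.42 for median coverage and -0.07 for the median level. Over all 144 the correlation of the median level was -0.05, against -0.09 to 0.16 in the other pairs. These are descriptions across genes, whose points share the same libraries. The median distance between the copies' median levels was 12.8 percentage points, and it exceeded 20 points in 46 of the 136 genes. Over all 144 genes it was 12.3 points, within the 11.0 to 13.0 points of the other pairs. The distance exceeded 20 points in 47 of the 144, against 18 of 74 in pair 6 and 31 of 86 in pair 5. Each median is taken over few and mostly different cytosines, so this is no comparison of corresponding sites.

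**Figure D3:**
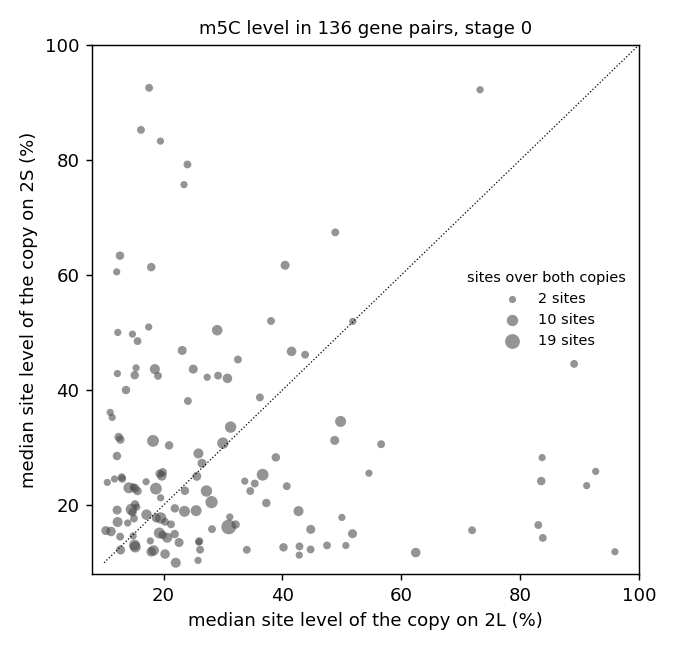
Median site level of the copy on 2S against that of the copy on 2L for the 136 genes listed in both, at stage 0, with point size giving the number of sites over both copies and the dotted line marking equal levels. The points form no diagonal (Spearman correlation -0.07), and genes with 1 highly methylated copy lie along both axes.

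The 5 genes with the most sites over both copies were lrp1, lima1, abr, ranbp2 and numa1. lrp1, an endocytic receptor of the LDL receptor family, had 10 sites between 13.2% and 49.3% in lrp1.L and 9 sites between 10.4% and 65.5% in lrp1.S. The only site above 50% was in lrp1.S, at position 122087938 (65.5% of 116 reads). lima1 had 7 sites in lima1.L and 5 in lima1.S, and the highest site of each copy was at 89.2% of 1088 reads in lima1.L (interval 87.3 to 91.0%) and 95.4% of 835 reads in lima1.S (interval 93.8 to 96.7%). Their intervals do not overlap but cover counting error only. Whether these cytosines of lima1.L and lima1.S correspond was not tested. abr, a regulator of small GTPases, had 6 sites of at most 33.9% in abr.L and 5 sites reaching 59.9% in abr.S.

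ranbp2, a large nucleoporin, was the most uneven of the 5, with 2 sites in ranbp2.L (12.0% of 217 reads and 25.5% of 55 reads) and 9 in ranbp2.S, of which the highest was at 74.1% of 81 reads. Median coverage was 136 reads over the 2 listed sites of ranbp2.L and 118 over the 9 of ranbp2.S. The depth of unlisted cytosines is not known. numa1, which organizes the spindle poles, had 6 sites between 13.8% and 58.3% in numa1.L and 5 sites between 21.4% and 75.4% in numa1.S. When names were replaced by RefSeq symbols, kmt2d led all pairs with 17 sites in each copy.

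Some genes had a high level in the listed sites of 1 copy and low levels in those of the other. The 6 genes with the largest distance between copies, chosen after their values were seen, were kansl2, tnfsf11, tuba1c, prr13-like, snrnp40 and mrps31. Of these, tuba1c is an alpha-tubulin, so its values are uncertain for the reason given for tuba3c above. In snrnp40, a component of the U5 spliceosomal particle, the level was 91.2% of 1348 reads in the L copy and 23.4% of 1761 reads in the S copy. In kansl2, a subunit of a histone acetyltransferase complex, it was 95.9% of 98 reads in the L copy and 11.9% of 84 reads in the S copy, and the sites differ in sequence, with Cgtta in the L copy and Ctcca in the S copy. In tnfsf11, a cytokine of the TNF family, the L copy had 15.1% of 918 reads and 20.0% of 1194 reads, while the S copy had 92.5% of 80 reads. marcksl1 and ucp2, named above for their depth, also differed, with 83.5% of 1493 reads in marcksl1.L against 15.6 to 28.3% at the 3 sites of marcksl1.S. For the other genes, whether the high and low cytosines of the copies correspond was not tested.

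Of the genes named above, arhgef17, apbb1, mettl16 and morc3.2 were listed in L alone and igsf3 and srpk1 in S alone, and RefSeq holds no symbol for the unlisted copy of these 6. krt8 and tuba3c were also listed in L alone, but RefSeq does hold a symbol for their S copies. espl1 was listed in both copies once RefSeq symbols were used, with 10 sites in espl1.S and 6 in espl1.L, which the list names LOC733221. The levels of espl1.L were between 10.3% and 59.5% at 388 to 1003 reads.

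The third comparison concerned where the sites lie. On 2L they ran from position 201872 to 180899993 and on 2S from 1086727 to 159359154. Counted in bins of 10 Mb, complete bins held 27 to 120 sites on 2L (median 52.5, 18 bins) and 25 to 101 sites on 2S (median 57, 15 bins). The fullest bin of 2L, from 130 to 140 Mb, held 120 sites in 48 genes, or 11.6% of the 2L sites, and includes kmt2d.L and cdk2.L. The fullest bin of 2S, from 120 to 130 Mb, held 101 sites in 41 genes, or 11.6% of the 2S sites, and includes lrp1.S and espl1.S. Of 22 gene pairs with the L copy in the fullest 2L bin, 8 had the S copy in the fullest 2S bin and the others lay just before it, from 115.3 Mb onward. The neighbouring bin of 2L, from 120 to 130 Mb, was the emptiest, with 27 sites in 11 genes. Numbers of sites and genes moved together along both chromosomes, and the density of annotated genes was not examined. Median levels of complete bins were between 15.9% and 31.3% on 2L and between 15.8% and 31.3% on 2S.

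**Figure D4:**
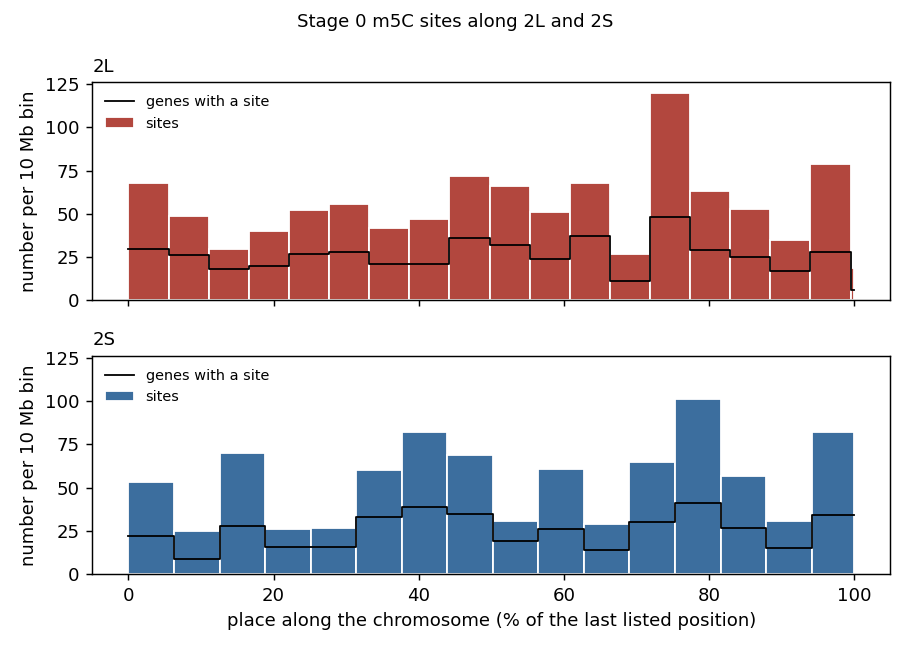
Number of stage 0 sites (bars) and of genes with a site (black line) in 10 Mb bins along 2L (top) and 2S (bottom), placed as a percentage of the last listed position, with the last bin of each incomplete. The tallest bars, 120 sites on 2L and 101 sites on 2S, stand between 71.9 and 81.6% of the way along.

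The gene pairs also show how both chromosomes are ordered relative to each other in this assembly. Of the 136 pairs, 125 fell into 4 blocks of unbroken order. In the first block, which ends with supt6h, 15 pairs between 0.71 and 33.4 Mb of 2L ran in the opposite direction on 2S, between 29.0 and 4.03 Mb. From cldn4 to hipk1, 6 pairs ran in the same direction. From eya3 to atp1b1, 16 pairs between 56.7 and 78.4 Mb of 2L ran in the opposite direction on 2S, between 65.1 and 44.3 Mb. From kiaa0319l to fam76b, 88 pairs between 79.5 and 167.1 Mb of 2L kept their direction on 2S, between 66.4 and 147.2 Mb. The last 11 pairs, toward the end of both chromosomes, fell into no block of at least 5 pairs. This order is a property of the gene positions and not of methylation.

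**Figure D5:**
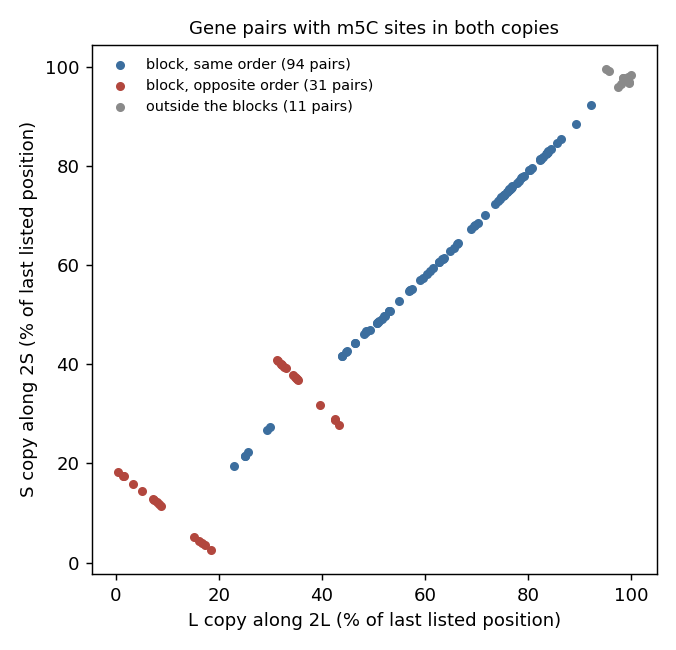
Place of the S copy along 2S against that of the L copy along 2L for the 136 gene pairs with sites in both copies, as a percentage of the last listed position, coloured by order. The 94 pairs in blocks of the same order rise along the diagonal, the 31 pairs in blocks of the opposite order fall, and 11 pairs near the end lie outside the blocks.

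Close neighbours were about as frequent on both chromosomes. Of 554 gaps between neighbouring sites of 1 gene on 2L, 17 were of 1 nt (3.07%) and 66 of at most 50 nt (11.9%). Of 465 gaps on 2S, 12 were of 1 nt (2.58%) and 49 of at most 50 nt (10.5%), against 2.56% and 10.3% of 7536 gaps on the other assembled chromosomes. The median gap in the genome, introns included, was 2499 nt on 2L and 3214 nt on 2S. Adjacent cytosines could differ in level, as at positions 118898891 and 118898890 of kmt2d.S, with 53.8% of 320 reads and 11.7% of 316 reads.

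In the region of sex determination no site was listed for dm-w, nor for dmrt1.L or dmrt1.S on other chromosomes. Of the 20 genes that flank dm-w in the RefSeq order, 10 on each side, 1 was matched by name to a listed site, ucp2.L. Of 883 names on 2L and 2S, 814 matched RefSeq, so a flanking gene listed under an unmatched name would be missed. The share of all RefSeq genes with a site was not worked out. This count thus has no background beside it and does not show a lack of sites near dm-w. The ucp2.L site, at position 180899993 on the minus strand, is the last listed on 2L. Of its 16595 reads, 71.9% were C (interval 71.2 to 72.6%). The S copy, ucp2.S, had 14.6% of 10701 reads at position 156549230 (interval 13.9 to 15.2%) and 16.7% of 9136 reads at position 156551520 (interval 15.96 to 17.5%). The next gene with a site on that side of dm-w in the RefSeq order, pold3.L, a subunit of DNA polymerase delta, had 16% of 50 reads. The RefSeq order is of another assembly than the listed positions, in which pold3.L, at 180838064, stands before ucp2.L. On the other side the nearest gene with a site was stard10.L, a lipid transfer protein 76 genes away in RefSeq, with 6 sites between 11.4% and 46.1%. By the listed positions, however, 19 sites in 6 genes lie past 180 Mb of 2L, among them sites of arhgef17.L, tsku.L and ucp2.L. The place of dm-w among these positions was not determined. Expression of the flanking genes was not measured here, so a gene without a site may simply lack reads.

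Genes were also grouped by role, through lists of symbol stems such as kmt or rnf. A list misses genes of the role under other names and may take in a few of another role, so its counts are of matched symbols and not of all genes of a role on a chromosome. Each list's share of the genes with a site on 2L and 2S is given beside its share on the other assembled chromosomes, and no difference was tested. The RNA modification list matched 6 genes with 13 sites on 2L and 1 gene with 2 sites on 2S (0.793% of genes, against 0.604% elsewhere). They were led by mettl16.L and by alkbh8.S, a wobble-base tRNA methyltransferase, whose sites were at 13.5% and 16.3%. The RNA processing and translation list matched 13 genes on 2L and 16 on 2S (3.28%, against 3.45% elsewhere), and prpf8.S, the core spliceosome protein, had 7 sites reaching 52.4%. The chromatin list matched 9 genes with 40 sites on 2L and 7 with 29 sites on 2S (1.81%, against 1.62% elsewhere), of which 17 sites each belong to kmt2d. The transcription factor list matched 7 genes on each chromosome (1.59%, against 2.09% elsewhere). Here znf347.L, a zinc finger protein, had 8 sites and a highest level of 86.7%, and paxbp1.S, which binds Pax proteins, had 5 sites with a median of 50.4%.

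The cell cycle and DNA replication list matched 9 genes on 2L, led by cdk2.L, and 7 on 2S (1.81%, against 3.02% elsewhere). Among the matched genes on 2S, pola1.S, the catalytic subunit of DNA polymerase alpha, led with 3 sites between 10.7% and 29.2%. The list did not match espl1.S or numa1.S, which were described above and had 10 and 5 sites. Its leading gene on 2S and its share are thus those of matched symbols only. The ubiquitin list matched 14 genes on 2L and 10 on 2S (2.72%, against 3.31% elsewhere). Its leading genes were rnf149.L, a membrane-bound ubiquitin ligase with 5 sites of at most 46.7%, and trim37.S, another ubiquitin ligase, with 6 sites reaching 72.7%. The small GTPase regulator list matched 9 genes with 35 sites on 2L, 18 of them in arhgef17.L, and 8 genes with 17 sites on 2S. Its share was 1.93%, against 2.36% elsewhere. Among the matched genes on 2S, arhgap42.S, a GTPase activator, led with 5 sites. The list did not match tiam1.S on 2S, which had 6 sites.

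The kinase and phosphatase list matched 4 genes on 2L and 8 on 2S (1.36%, against 2.71% elsewhere). Among them map4k4-like.L, a kinase, had 4 sites of at most 15.6%, and ptpru.S, a receptor tyrosine phosphatase, had 4 sites between 29.8% and 71.0%. The membrane transport list matched 18 genes on 2L and 14 on 2S (3.62%, against 3.87% elsewhere), with tmem131.L, a membrane protein, reaching 75%. The vesicle traffic list matched 5 genes on each chromosome (1.13%, against 1.81% elsewhere). Among the matched genes cog3, a subunit of the Golgi tethering complex, led on both, with 3 sites in cog3.L and 5 in cog3.S. The list did not match cltc.S or sytl2.S on 2S, which had 8 sites each.

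At stage 25, 3 of the 5 sites on 2L and 2S had also been listed at stage 0, and 2 of these 3 were lower at stage 25 in Fisher's exact test (two-sided, Benjamini-Hochberg adjusted over all 36 shared sites). Over all 36 shared sites 69.4% were called lower, so 2 of 3 is close to the background. In prr13-like.L, which encodes a proline-rich protein, the site at position 149115251 on the minus strand of 2L had 26 C reads of 109 at stage 25 (23.9%, interval 16.8 to 32.7%), against 1049 of 1252 at stage 0 (83.8%, interval 81.6 to 85.7%), and Fisher's exact test gave an adjusted p of 6.1e-38. In tmem35b.L, a transmembrane protein named LOC108708216 in the list, the Caggg site at position 79697332 had 10 C reads of 63 at stage 25 (15.9%, interval 8.86 to 26.8%), against 148 of 219 at stage 0 (67.6%, interval 61.1 to 73.4%), with an adjusted p of 3.5e-13 in the exact test. Both sites are on 2L, and their intervals at both stages lie far apart.

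In LOC108709196 on 2S, which has no annotated name, the site at position 8145499 had 25 C reads of 44 at stage 25 (56.8%, interval 42.2 to 70.3%), against 18318 of 36796 at stage 0 (49.8%, interval 49.3 to 50.3%). The difference did not pass the exact test (adjusted p = 0.44), and the interval at stage 25 spans both a fall and a rise. Coverage of this site was 836 times as high at stage 0 as at stage 25, the highest coverage on 2S at stage 0. The reads of both libraries are pooled in each list, so this test compares the pooled reads and covers counting error only.

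The other 2 sites at stage 25 were on 2S and were not listed at stage 0. pmel.S, a structural protein of melanosomes, had 5 C reads of 44 at position 120471799 (11.4%, interval 4.95 to 24.0%), while at stage 0 the gene was listed with other sites, at 16.4% of 189 reads and 40.7% of 59 reads. shmt2.S, the mitochondrial serine hydroxymethyltransferase, had 20 C reads of 195 at position 122420801 (10.3%, interval 6.74 to 15.3%), and no site of shmt2.S was listed at stage 0, when shmt2.L on 2L had 37.0% of 108 reads. Both levels lie near the minimum of the calls, and whether these cytosines were covered at stage 0 is not known from the lists. Of all listed sites, 2L held 4.44% at stage 25 and 6.39% at stage 0, and 2S held 6.67% at stage 25 and 5.35% at stage 0. With 2 and 3 sites at stage 25, no shift between both chromosomes was detectable.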

How the data were processed

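RNA BS-seq reads were trimmed with cutadapt and Trimmomatic and mapped to converted X. laevis v9.2 sequence with HISAT2 and Bowtie2 by the authors, who called sites over both libraries of a stage. In the deposited lists, coverage is a count of C plus T reads, the deposited level is a fraction, given here in percent, and the deposited p-value is that of the call and was not tested further. The lists hold coverages from 20 reads and levels from 10%. Coverage multiplied by level gave whole C reads within 0.0001. Positions were left as deposited and may count from 0 or from 1. No genome of that build was used, so location in exon, intron or UTR was not analysed here.

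Samples were grouped by labelled stage. Chromosomes were compared by counts, means and 95% Wilson intervals. Shared sites were compared by Fisher's exact test (two-sided) with Benjamini-Hochberg adjustment over all shared sites and a threshold of 0.05. This test was tried on simulated reads that held counting error alone, without variation between libraries. Of 883 gene names on 2L and 2S, 814 matched RefSeq (assembly Xenopus_laevis_v10.1), taken only for names and gene order. Blocks of gene order ended where the step on 2S differed from that on 2L by over 3 Mb or turned round. The text names, for each chromosome, the 5 genes with most sites, the 5 sites of highest lower bound and of highest coverage (1 per gene; 3 other 2L genes tied with cdk2.L were left out by lower total coverage), the 5 pairs with most sites, all stage 25 sites, flanking genes of dm-w and the leading gene of each role list, apart from a few that are not reported here. Members and lists were chosen with earlier results of these data known. Coverage and level minimums, other averages, bin sizes and pair definitions were varied. Python 3.11.15, pandas 2.3.3, scipy 1.17.1, statsmodels 0.14.6 and matplotlib 3.10.9 were used.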

Additional observations from a re-analysis of the deposited data

How the results depend on the processing

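No paired analysis was possible because the libraries of a stage were combined in 1 list, and for the same reason no replicate could be left out. Of 77 alternative values, 59 stayed within 1.5 times the reported value or within the spread among sites. For the difference in level that spread is so wide that staying within it says little. The 2L over 2S site ratio was the lowest of the 9 pairs under every coverage and level minimum tried, between 1.14 and 1.19. Minimums lower the numbers by construction: with 100 reads, 643 sites on 2L, 551 on 2S and 82 pairs listed in both copies were left; with a level of 20%, 547, 469 and 72; with a level of 30%, 349 sites on 2L and 307 on 2S. The difference in mean level, 2L minus 2S, was 0.27 points with 100 reads and 0.11 points as a mean over genes, against -0.62 points as reported, so it has no settled sign. The fullest bin of 2L held 3.39 times the mean bin in bins of 5 Mb and 1.42 times in bins of 20 Mb, against 2.20 times in bins of 10 Mb, and overlapped the same place. With at least 100 reads at both stages, 1 site remained lower at stage 25, as the other has 63 reads. RefSeq symbols for names, added after the data were seen, gave 164 pairs in both copies, 275 in L alone and 190 in S alone, with more sites in L in 58 genes and in S in 59. Keeping only pairs with both copies on 2L and 2S gave 24.5% of genes listed in both copies, against 25.5% as reported, and 18.1 to 23.4% in the other 8 pairs held to the same rule. Coverage limits the rest: the interval of a level at 44 reads is wide, and unlisted cytosines carry no depth.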
